A study of Mus musculus with 16 samples.

Results

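The small nucleolar RNA genes of the mouse, whose symbols start with Snora (box H/ACA class) or Snord (box C/D class), were followed across normal brain and 3 types of induced brain tumour. Every gene with such a symbol and a probe set that names it alone was taken, which gave 51 of the 19936 genes measured on the arrays, 20 Snora and 31 Snord. The set was proposed from the contrast of PDGF tumours without and with RBPJ, in which Snora73b and Snora33 stood out, so that contrast is described below and not tested. Total RNA was hybridised to 16 Affymetrix arrays, 4 for each group. Control arrays came from normal brain that is wild type for the PDGF-B, p53 and RBPJ genes. PDGF+p53-/- tumours grew in mice with floxed p53 after 1 retroviral construct delivered both PDGF-B, a mitogen of glial precursors, and Cre recombinase. PDGF+p53-/-RBPjk-/- tumours were made with the same retrovirus in mice whose RBPJ alleles were floxed as well, RBPJ being the DNA-binding protein through which Notch receptors act on their target genes. In p53-/-RBPjk-/- tumours there was no retrovirus, and the same 2 genes were deleted by a CreERT2 transgene under Hes5 control, which is active in neural stem cells. All tumours therefore lack p53, and the p53 RBPJ tumours differ from both PDGF types in their Cre source and cell of origin as well as in PDGF. Tumours were cut out by the green fluorescence of a Cre reporter when the mice showed symptoms, and host brain tissue may have come along. The labels give no age or strain, give no virus or sham treatment for the controls, and do not tie the arrays of a group to separate animals. A p-value here thus measures spread between samples that may be partly technical.

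Small nucleolar RNAs (snoRNAs) are short stable RNAs that guide the chemical modification and the cutting of ribosomal RNA in the nucleolus. Box C/D snoRNAs sit with fibrillarin and its partners and direct methylation of the ribose, and box H/ACA snoRNAs sit with dyskerin and its partners and direct conversion of uridine to pseudouridine. A few, among them U17 (Snora73), U22 (Snord22) and U8 (Snord118), act in the cutting of the ribosomal precursor rather than as ordinary modification guides. In mammals most are trimmed out of introns of a host gene, commonly a gene for a ribosomal protein or translation factor, or a non-coding host such as Snhg3 or Gas5, and many hosts start with a run of pyrimidines at the cap. By the reference annotation, 50 of the 51 genes lay inside the span of another gene, and Snord118, which has a promoter of its own, was the other one. The containing genes numbered 43, of which 16 encode ribosomal proteins and together hold 21 snoRNA genes. A probe set on a snoRNA can read the unspliced host transcript as well as the snoRNA, and which of these was measured was not tested. Snora73a and Snora73b are close copies, so their values may share signal and are uncertain as separate readings.

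The start of the host gene is where its transcription, and with it that of the snoRNA, is set, so 6 host starts are shown for the genes on which the results turn. Each window runs from 20 bases before to 20 bases from the annotated start on, on the strand of the host (RefSeq, GRCm38.p6), with capitals for a C followed by at least 6 pyrimidines. Snhg3 holds Snora73a and Snora73b (chr4:132353667-132353706, minus strand), Rps12 holds Snora33 (chr10:23787190-23787229, minus), and 1110038B12Rik holds Snord52 (chr17:34952452-34952491, minus). Ncl, the gene of nucleolin, holds Snora75 and Snord82 (chr1:86359436-86359475, minus), Rack1 holds Snord95 and Snord96a (chr11:48800340-48800379, plus), and Rpl13a holds Snord33 and Snord35a (chr7:45128726-45128765, minus).
Snhg3: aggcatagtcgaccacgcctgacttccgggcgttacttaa
Rps12: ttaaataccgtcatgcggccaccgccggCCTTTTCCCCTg
1110038B12Rik: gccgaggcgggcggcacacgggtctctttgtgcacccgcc
Ncl: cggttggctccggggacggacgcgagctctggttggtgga
Rack1: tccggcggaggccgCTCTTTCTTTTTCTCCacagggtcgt
Rpl13a: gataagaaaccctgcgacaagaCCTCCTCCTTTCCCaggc
Rps12, Rack1 and Rpl13a hold such a run, of 11, 16 and 14 bases, and Snhg3, 1110038B12Rik and Ncl have none in the window. Start windows were found for 31 of the 43 hosts. A run, searched on the strand of the gene, was present in 11 of these 31 (35.5%) and in 5017 of 27025 start windows of all genes (18.6%). The motif TGGGAA, which is the core of RBPJ sites, was searched on both strands of the 300-base promoter windows and occurred in 11 of 31 hosts (35.5%) against 25.5% of all genes. On the other strand this motif reads TTCCCA, whose pyrimidines can fall within such a run. A match is a description of sequence.

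The arrays were alike in scale, with medians between 5.97 and 6.06 on the log2 scale, and arrays of a group correlated with r between 0.971 and 0.989 over genes. Rbpj, the deleted gene, read 8.12, 8.21, 7.76 and 7.96 in normal brain, 8.5, 8.41, 8.19 and 8.17 in PDGF p53 tumours, 7.69, 7.88, 7.55 and 7.81 in PDGF p53 RBPJ tumours, and 7.76, 7.64, 7.81 and 7.94 in p53 RBPJ tumours. Both RBPJ-deleted types lay below the PDGF p53 tumours without overlap, but each of them overlapped with normal brain, and whether the probe set covers the deleted exons is not known. Pdgfb ranged from 5.69 to 6.20 in normal brain, from 5.81 to 6.31 in PDGF p53 tumours and from 5.88 to 6.19 in PDGF p53 RBPJ tumours, which overlapped. The virus-free p53 RBPJ tumours read 5.76, 5.37, 5.77 and 5.23, below every array of both virus-induced types, and whether the probe set reads the viral copy is not known. Trp53 had no probe set with 1 symbol. Neuron markers of normal brain were present on the control arrays, where their mean lay between 10.9 and 11.1, and the glial precursor and division markers of the tumours are given beside the results below.

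Snora73b, 1 of the copies of U17, was low in PDGF p53 tumours and high in both tumour types without RBPJ. Its log2 level was 5.71, 6.30, 6.26 and 6.14 in normal brain and 5.59, 5.76, 5.57 and 5.68 in PDGF p53 tumours. PDGF p53 RBPJ tumours read 6.80, 7.53, 6.94 and 6.76, and p53 RBPJ tumours read 6.77, 7.07, 7.23 and 6.88. Every array without RBPJ lay above every other array, and the PDGF p53 arrays sat at the lower end of normal brain or below it, with 1 array, replicate 2, above the lowest control. The mean was 5.65 ± 0.09 in PDGF tumours with RBPJ and 7.0 ± 0.36 in those without (SD, n = 4 each), a difference of 1.36 or 2.56-fold, given as a description. Between the 2 types without RBPJ the difference was -0.02, with a 95% interval from -0.37 to 0.34. This too is a description, since the PDGF p53 RBPJ arrays took part in the choice of Snora73b.

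Snora73a, the neighbouring copy in Snhg3, was also lowest in PDGF p53 tumours by its mean and higher in both types without RBPJ, with the p53 RBPJ mean above the PDGF p53 RBPJ mean. Its level was 5.58, 5.45, 5.70 and 6.18 in normal brain, 5.48, 5.49, 5.21 and 5.99 in PDGF p53 tumours, 6.39, 6.84, 6.55 and 6.46 in PDGF p53 RBPJ tumours and 6.67, 6.37, 7.14 and 6.62 in p53 RBPJ tumours. Normal brain and PDGF p53 tumours overlapped, as did the types without RBPJ, and there was no overlap between these pairs. The difference between PDGF types was 1.02. Snhg3 itself had no probe set with 1 symbol, so the host could not be set beside these readings.

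Snora33, a box H/ACA snoRNA inside the small-subunit ribosomal protein gene Rps12, differed from Snora73b in that PDGF p53 tumours lay above normal brain rather than below. The control arrays were tight, at 6.54, 6.5, 6.41 and 6.48, and the PDGF p53 arrays read 7.46, 6.99, 6.93 and 6.5. Levels reached 7.80, 8.23, 7.85 and 8.03 in PDGF p53 RBPJ tumours and 8.03, 7.88, 8.08 and 8.11 in p53 RBPJ tumours. PDGF p53 replicate 4 fell inside the control range, and the 8 arrays without RBPJ lay above all others. The difference between PDGF types was 1.01, or 2.01-fold, and that between the types without RBPJ was 0.05, with a 95% interval from -0.29 to 0.38. Both are descriptions, since the PDGF p53 RBPJ arrays took part in the choice of Snora33. Rps12 moved less, with a difference of 0.14 between PDGF types.

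**Figure D1:**
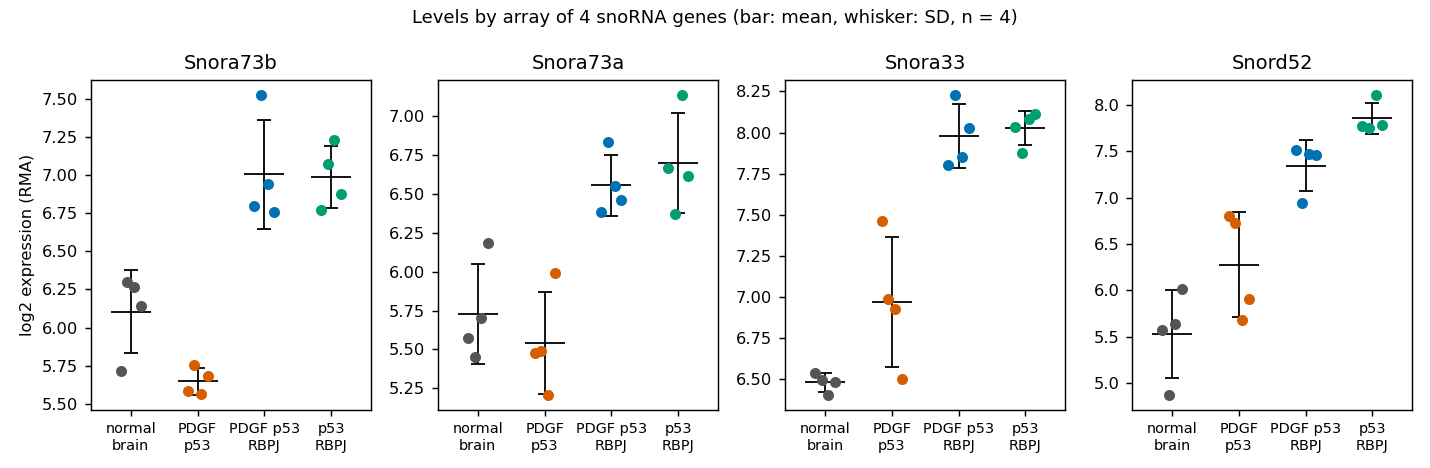
Log2 level of Snora73b, Snora73a, Snora33 and Snord52 on each of the 16 arrays, by group, with points for arrays, bars for group means and whiskers for the SD; the vertical axes start above 0 and differ between panels. In each panel all 8 arrays without RBPJ lie above the 8 others, and Snora73b in PDGF p53 tumours averages 5.65, below the 6.11 of normal brain.

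The p53 RBPJ tumours and normal brain supply the comparison that shares no array with the contrast from which the set was proposed, although the set was chosen with earlier results of all these arrays known. In it 36 of the 51 snoRNA genes were higher in the tumours and 0 were lower, by limma with a Benjamini-Hochberg adjusted p under 0.05 over all genes, and 40 of 51 had an unadjusted p under 0.05. Over all 19936 genes 16.4% were higher and 20.4% were lower by the adjusted threshold, and 43.7% had an unadjusted p under 0.05. The median difference of the snoRNA genes was 0.84, with a range from -0.58 to 2.33, against a median of -0.02 over all genes. Both classes took part, with 15 of 20 box H/ACA genes higher (median 0.85) and 21 of 31 box C/D genes higher (median 0.84). Arrays of the 2 groups did not overlap for 32 of the snoRNA genes, all higher in the tumours, whereas 15.1% of all genes were higher without overlap. In bulk tissue fewer cells of a type and less RNA per cell cannot be told apart, and arrays brought to a common distribution do not show a change in total RNA. Centring on 9 housekeeping genes moved the median of all genes to 0.16 and the split of all calls from 3263 higher and 4067 lower to 5057 and 2866; the snoRNA genes then had 41 higher and 0 lower.

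Snord52, a box C/D snoRNA in the non-coding gene 1110038B12Rik, had the largest rise in this comparison. It read 5.57, 4.87, 5.64 and 6.02 in normal brain and 7.77, 7.76, 8.11 and 7.78 in p53 RBPJ tumours, so the lowest tumour array was well above the highest control. The difference was 2.33 ± 0.25 (SE), or 5.03-fold (limma adjusted p = 9.57e-07).

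Both snoRNA genes inside Ncl rose. Snora75 read 6.84, 6.69, 6.10 and 6.98 in normal brain and 7.78, 8.26, 10.83 and 8.54 in the tumours, where replicate 3 stood far above the others. Its difference was 2.20 ± 0.44, or 4.61-fold (limma adjusted p = 0.000559), and without that array it was 1.55, or 2.92-fold, with the call kept. Snord82 read 7.46, 7.96, 7.45 and 7.29 against 8.95, 9.23, 9.65 and 9.22, with no overlap and a difference of 1.73 ± 0.21 (adjusted p = 3.68e-06). Ncl itself, a major protein of the nucleolus, rose by 0.59 ± 0.13.

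Another 3 genes rose by similar amounts. Snord73b, in the ribosomal protein gene Rps3a1, read 5.68, 6.12, 5.35 and 5.42 in normal brain and 7.78, 7.31, 7.52 and 7.16 in the tumours (1.80 ± 0.24, limma adjusted p = 9.68e-06). Snord38a, of the box C/D class, read 4.25, 4.41, 4.12 and 4.24 against 5.81, 6.33, 6.15 and 5.84 (1.77 ± 0.18, adjusted p = 4.56e-07). Snora69, in the ribosomal protein gene Rpl39, read 5.08, 4.93, 4.21 and 4.23 against 6.72, 6.51, 6.07 and 6.25 (1.78 ± 0.19, adjusted p = 9.94e-07). In none of these 3 genes did the groups overlap, and Snora69 had the widest controls.

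Snord87, which lies in the spans of Mcmdc2 and the non-coding Snhg6, read 7.19, 7.33, 7.11 and 7.09 in normal brain and 8.74, 9.04, 9.20 and 8.92 in the tumours, a rise of 1.79 ± 0.20 (limma adjusted p = 1.58e-06). Snord61, in the gene of the RNA-binding protein Rbmx, read 4.49, 5.98, 4.75 and 5.66 against 7.03, 7.12, 6.85 and 7.02, a rise of 1.78 ± 0.32 (adjusted p = 0.000192). Its control arrays were spread over more than a log2 unit, and the tumour arrays were close together. Snora33 rose by 1.54 ± 0.16, or 2.92-fold (adjusted p = 4.92e-07), and Snora73b by 0.88 ± 0.17, or 1.84-fold (adjusted p = 0.000406). These 10 calls held under each of the 23 or 24 alternative analyses that could be run for the gene.

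Cell makeup differed strongly in the same comparison. All 5 measured neuron markers, all 4 oligodendrocyte markers and all 4 astrocyte markers were lower in p53 RBPJ tumours, with median differences of -3.74, -2.72 and -2.81. All 4 markers of dividing cells (median 4.74) and all 4 of oligodendrocyte precursors (median 1.88) were higher, 2 of 5 microglial and myeloid markers were higher and 3 lower, and 0 of 3 endothelial markers passed, at an adjusted or unadjusted p under 0.05. The mean log2 level of the neuron list was between 6.46 and 8.23 on the tumour arrays and between 10.9 and 11.1 in normal brain, and that of the division list was between 10.2 and 10.7 against 6.08 to 6.65. No marker list was at 0, since the array scale has no true zero. The part of cell makeup in the snoRNA differences was not tested.

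The 13 genes that were higher in none of the tumour types were Snora16a, Snora20, Snora23, Snora7a, Snord35b, Snord42a, Snord42b, Snord49b, Snord55, Snord57, Snord58b, Snord8 and Snord85. Snord42a, in the gene of the large-subunit protein Rpl23a, was the only snoRNA gene with a negative difference between p53 RBPJ tumours and normal brain, at -0.58 ± 0.27 (limma adjusted p = 0.114). Its arrays read 8.60, 8.41, 7.56 and 7.66 in normal brain and 7.78, 7.03, 7.94 and 7.16 in the tumours, so the groups overlapped. Levels across the 51 genes ran from a mean of 2.88 for Snord58b to 9.04 for Snord57 on the log2 scale, and levels of different probe sets cannot be ranked as amounts of RNA. The SD within groups had a median of 0.28 over the snoRNA genes and of 0.22 over all genes. In the fit limited to genes at or above the median level, 30 snoRNA genes were left, of which 22 were higher.

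**Figure D2:**
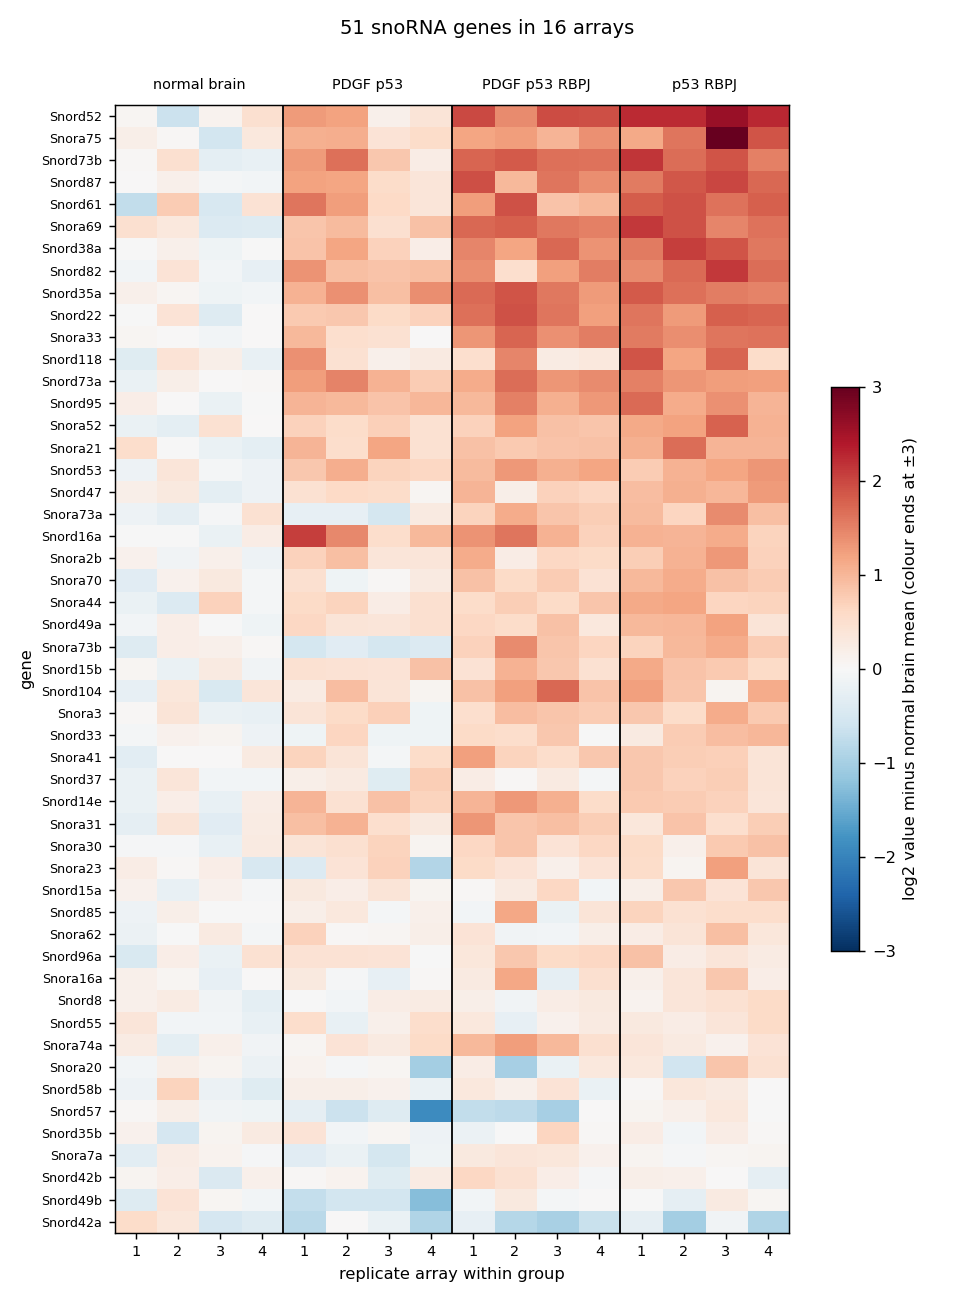
Log2 level of each of the 51 snoRNA genes (rows) on each of the 16 arrays (columns, by group), as the difference from the mean of the 4 control arrays. Most rows are above the control mean in the p53 RBPJ columns, where 50 of 51 mean differences are positive, and Snord42a is the exception.

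In PDGF p53 tumours 43 of the 51 snoRNA genes had a higher mean than in normal brain, and a few were called lower. Against normal brain 21 were higher and 3 lower, with a median of 0.41; over all genes 13.6% were higher and 17.6% lower, with a median of -0.04. This comparison and the next share arrays with the contrast from which the set was proposed. Calls of Snora73b and Snora33 within these counts are therefore descriptions and not tests. The class counts were 15 of 31 box C/D genes higher (median 0.47) and 6 of 20 box H/ACA genes higher (median 0.38). Snord16a, in Rpl4, led with 7.68, 7.06, 6.13 and 6.58 against 5.59, 5.59, 5.42 and 5.83 in normal brain, a difference of 1.25 ± 0.25. Snord35a (1.17), Snord73a (1.14), Snord82 (0.996), Snord95 (0.96), Snord87 (0.83), Snord53 (0.80) and Snora69 (0.78) followed among genes without overlap of arrays.

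The 3 genes lower in PDGF p53 tumours were Snora73b (-0.46), Snord49b (-0.77) and Snord57 (-0.80). Snord49b, in the non-coding gene 2410006H16Rik, read 7.53, 7.69, 7.69 and 6.97 there and 7.85, 8.66, 8.29 and 8.16 in normal brain. It was back at 8.15, 8.54, 8.17 and 8.25 in PDGF p53 RBPJ tumours and at 8.24, 7.98, 8.52 and 8.30 in p53 RBPJ tumours, inside the control range. Snord57, inside Nop56, read 9.09, 8.72, 8.98 and 7.47 in PDGF p53 tumours against 9.41, 9.55, 9.26 and 9.24, and the low value of replicate 4 set much of the difference. Without that array it was -0.43 and the call was lost. The count of genes called lower was 1 without control replicate 2, control replicate 3 or PDGF p53 replicate 4, which left Snord49b alone. It was 2 without any of 8 other arrays in turn, where Snord49b and Snord57 kept their calls and Snora73b lost its own.

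In PDGF p53 RBPJ tumours 33 snoRNA genes were higher than in normal brain and 0 were lower, with a median of 0.69, where 15.7% of all genes were higher and 17.9% lower. Among box H/ACA genes 15 of 20 were higher (median 0.78) and among box C/D genes 18 of 31 (median 0.63). The 8 largest rises without overlap were those of Snord52 (1.82), Snord73b (1.72), Snora69 (1.65), Snord35a (1.61), Snord22 (1.60), Snora33 (1.5), Snord87 (1.48) and Snord38a (1.43). Snord22 (U22), which lies in Snhg1 and acts in processing of the small-subunit RNA, read 9.01, 9.27, 8.95 and 8.57 there, 8.13, 8.15, 7.92 and 8.04 in PDGF p53 tumours, 7.33, 7.76, 6.95 and 7.37 in normal brain and 8.95, 8.64, 9.13 and 9.09 in p53 RBPJ tumours. Its groups formed 3 separate steps, with both types without RBPJ sharing the top one. A gene was called lower when 1 of 5 arrays was left out (control replicates 3 and 4, replicate 4 of PDGF p53, and replicates 1 and 4 of PDGF p53 RBPJ).

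Across the 3 tumour types 21 snoRNA genes were higher than normal brain in all, and 10 were called higher in both types without RBPJ and not in PDGF p53 tumours. The latter were Snora3, Snora30, Snora41, Snora44, Snora70, Snora73a, Snora73b, Snora75, Snord104 and Snord47. Of these 10, 8 are box H/ACA genes, a class that makes up 20 of the 51, and whether the classes differ in this was not tested. A call in some types and not in another does not show that the types differ. Another 5 (Snora62, Snord118, Snord15a, Snord33 and Snord37) were called in p53 RBPJ tumours alone, and Snora74a and Snord96a in PDGF p53 RBPJ tumours alone. Group means rose in the order normal brain, PDGF p53, PDGF p53 RBPJ, p53 RBPJ for 25 of the 51 genes. For 42 genes both means without RBPJ lay above the PDGF p53 mean. These orders of means use the contrast from which the set was proposed, and both differences are taken from the same PDGF p53 arrays. The share of all genes with each pattern in this paragraph was not taken, so nothing is read from these counts.

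**Figure D3:**
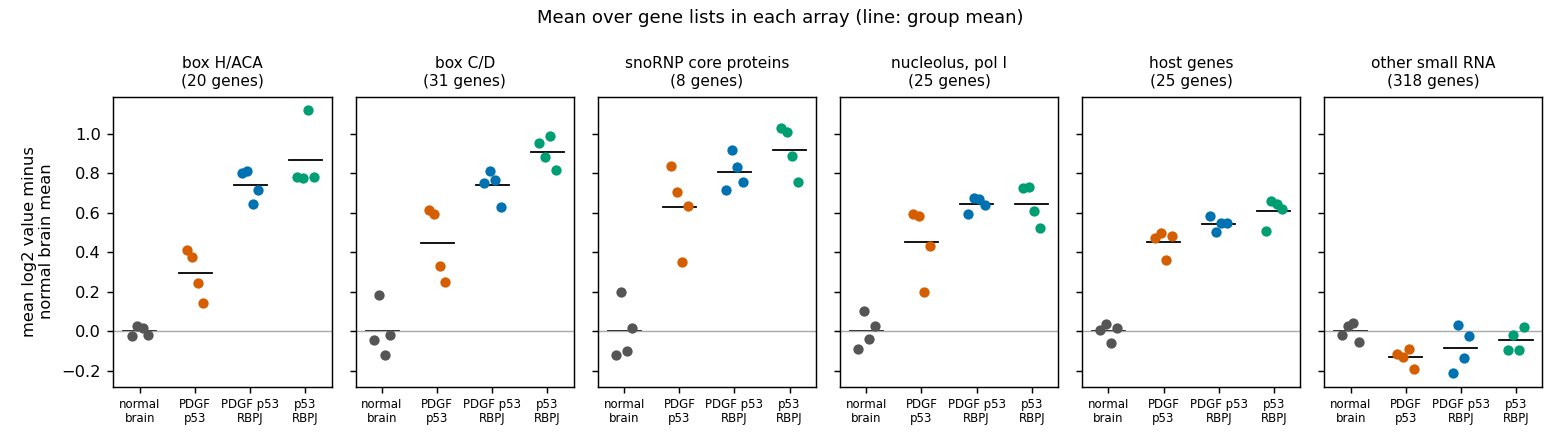
Mean log2 level over each gene list on each of the 16 arrays (points; lines are group means), less the mean of the 4 control arrays, for both snoRNA classes, the 8 core particle proteins, nucleolar genes, host genes and other small RNA genes. Box H/ACA means run from 0.14 to 0.41 in PDGF p53 tumours and from 0.64 to 1.12 in the types without RBPJ, and box C/D means from 0.25 to 0.61 and from 0.63 to 0.99.

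The mean over the 51 genes was also taken array by array. It includes the arrays and genes of the contrast from which the set was proposed, so its gap between the PDGF types is a description. Relative to the control mean it was 0.53, 0.51, 0.30 and 0.21 on the PDGF p53 arrays, 0.77, 0.81, 0.72 and 0.66 on the PDGF p53 RBPJ arrays and 0.89, 0.84, 1.04 and 0.81 on the p53 RBPJ arrays. Normal brain, PDGF p53 tumours and the types without RBPJ did not overlap, PDGF p53 arrays were the most spread, and the 2 types without RBPJ overlapped at 0.81. PDGF p53 replicate 3 had the highest neuron list mean of its group, 9.32, and PDGF p53 replicate 4 the highest myeloid list mean, 8.52, and these were the arrays with the lower snoRNA means. Among the p53 RBPJ arrays, replicate 3 had both the highest neuron list mean, 8.23, and the highest snoRNA mean, 1.04. The part of host tissue in these spreads was not tested.

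Loss of RBPJ within PDGF tumours is the contrast from which the set was proposed, and its values are a description. The snoRNA genes had a median difference of 0.27 and 45 of 51 were positive, while the median over all genes was 0.02. The highest were Snora73b (1.36), Snord52 (1.07), Snora73a (1.02), Snora33 (1.01) and Snord22 (0.89), and the lowest were Snord42a (-0.21), Snora62 (-0.14), Snord55 (-0.13), Snord37 (-0.09) and Snord16a (-0.07). Single arrays turned the sign of 3 of these low values: without PDGF p53 replicate 1 Snora62 was 0.0087 and Snord16a 0.20, without PDGF p53 RBPJ replicate 4 Snord16a was 0.09, and without PDGF p53 replicate 4 Snord37 was 0.09. Box H/ACA genes had a median of 0.42 and box C/D genes of 0.22. Arrays did not overlap for 9 snoRNA genes, all higher without RBPJ, and 1.94% of all genes were higher without overlap. Past the adjusted threshold were 2 snoRNA genes, Snora73b and Snora33, of 4 genes in all (0.0201%; 0.015% higher). Nothing is read from that count, since it chose the genes, and it was 1 without any of 12 of the 16 arrays in turn and 3 without PDGF p53 replicate 4.

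Against the same PDGF p53 arrays, p53 RBPJ tumours had 12 snoRNA genes higher and 0 lower, with a median of 0.43, where 1.93% of all genes were higher and 3.61% lower. Of the 12, 6 were among the 20 box H/ACA genes and 6 among the 31 box C/D genes. Snord52 (1.58), Snora73b (1.34), Snora73a (1.16), Snora33 (1.06), Snord38a (1.05), Snora69 (0.996), Snord87 (0.96) and Snord22 (0.89) had the largest differences. Since both tumour types without RBPJ were set against 1 group of arrays, the likeness of these lists to those above is partly built in. The p53 RBPJ tumours also had no PDGF virus and arose by another Cre, so RBPJ cannot be told apart from these in this comparison. Housekeeping centring raised the count to 22 and turned the split over all genes from 385 higher and 720 lower to 1120 and 421.

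The 2 types without RBPJ, set directly against each other, differed in 1 snoRNA gene, with 0.637% of all genes higher and 2.63% lower in p53 RBPJ tumours. Snora74a, a box H/ACA gene in Snhg4, read 6.98, 7.26, 6.99 and 6.49 in PDGF p53 RBPJ tumours and 6.37, 6.29, 6.14 and 6.42 in p53 RBPJ tumours, a difference of -0.63 ± 0.16. Normal brain read 6.26, 5.71, 6.17 and 5.90. The call was lost in 13 of 24 alternatives, among them each fit without 1 of the p53 RBPJ arrays or without PDGF p53 RBPJ replicate 1, 2 or 3. The median difference over the 51 genes was 0.14, against -0.01 over all genes. It was 0.06 without p53 RBPJ replicate 1, 0.07 without p53 RBPJ replicate 3 and 0.27 under housekeeping centring, which moved the median of all genes to 0.12. Under housekeeping centring the calls over all genes went from 127 higher and 524 lower to 211 and 238.

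**Figure D4:**
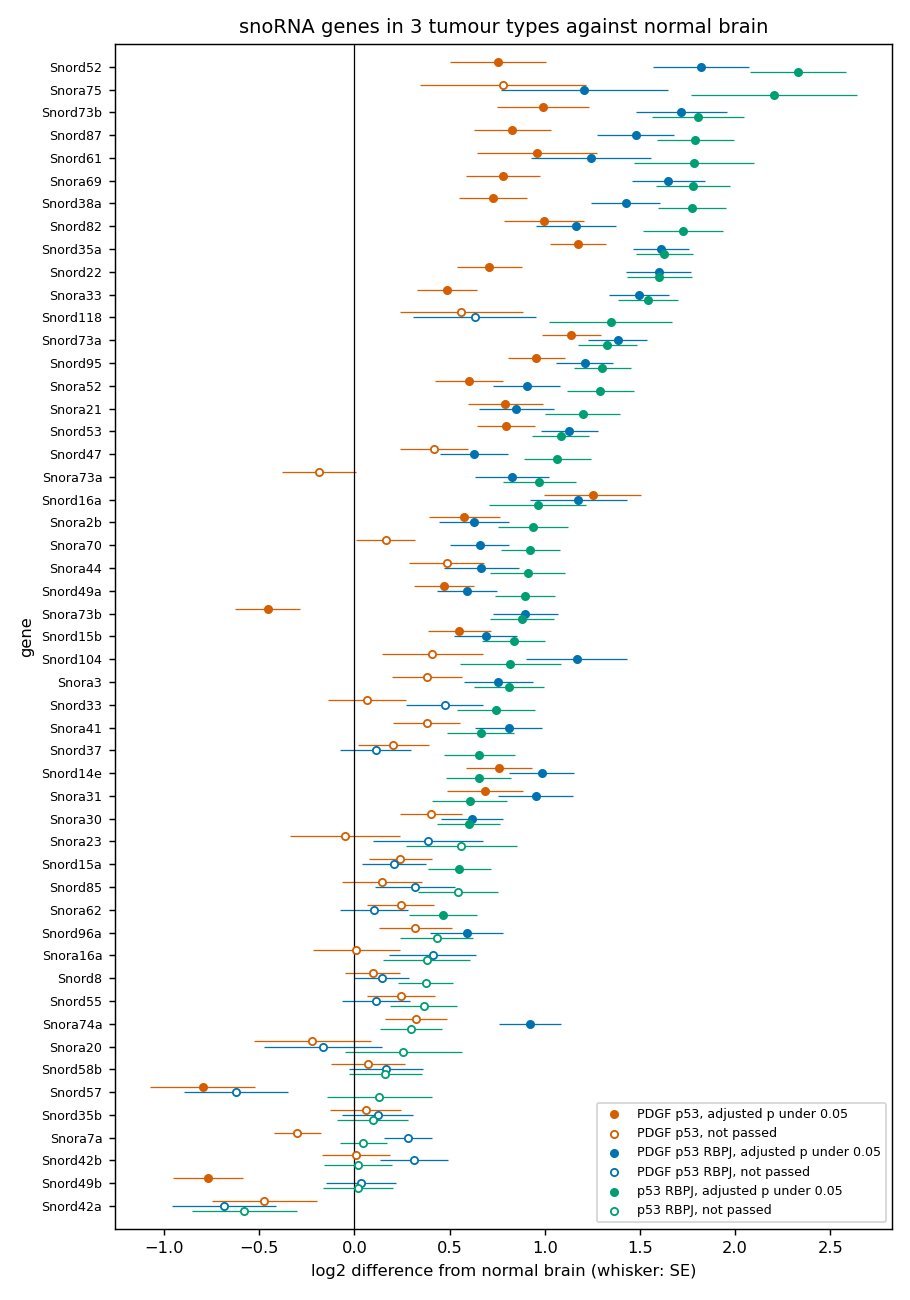
Difference in mean log2 level from normal brain (horizontal axis) for each of the 51 snoRNA genes in the 3 tumour types, with whiskers for the SE and filled points for an adjusted p under 0.05. Snord52 and Snora75 lead in p53 RBPJ tumours at 2.33 and 2.20, Snora73b is at -0.46 in PDGF p53 tumours and above 0 in the other types, and Snord42a is below 0 in all 3 types.

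Most of the proteins that carry snoRNAs were higher in the same tumours, with 7 of the 8 core genes past the threshold where both PDGF and RBPJ loss were present and 6 in each of the other tumour types. Fibrillarin (Fbl), the methyltransferase of box C/D particles, differed from normal brain by 1.37 in PDGF p53 tumours, by 1.49 in PDGF p53 RBPJ tumours and by 1.61 in p53 RBPJ tumours. In the same order of tumours, its scaffold partners followed, Nop58 with 1.04, 1.26 and 1.54 and Nop56 with 0.49, 0.69 and 0.89. Snu13, which binds the kink of the RNA, differed by 0.32, 0.36 and 0.24 and passed in PDGF p53 RBPJ tumours alone. For box H/ACA particles, dyskerin (Dkc1), the pseudouridine synthase, differed by 0.70, 0.90 and 1.31, Nhp2 by 0.56, 1.03 and 0.93 and Gar1 by 0.57, 0.63 and 0.79. Nop10 gave -0.01, 0.08 and 0.06 and passed in none. Of the 8 core genes 0 passed between PDGF types, where Fbl read 10.45, 10.47, 9.88 and 10.58 with RBPJ and 10.38, 10.66, 10.53 and 10.29 without, so these arrays overlapped.

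Against normal brain, other nucleolar genes moved in the same direction. Of 25 genes for polymerase I and ribosome assembly 13 were higher and 0 lower in PDGF p53 tumours (median 0.46), 19 and 0 in PDGF p53 RBPJ tumours (median 0.69) and 18 and 0 in p53 RBPJ tumours (median 0.79), and 0 passed between PDGF types. In p53 RBPJ tumours the RNA helicase Ddx21 differed by 1.86 ± 0.20, nucleophosmin (Npm1) by 1.08 ± 0.18 and Polr1b, the second subunit of polymerase I, by 0.81 ± 0.12. Of 14 assembly factors 4, 9 and 8 were higher in the 3 types and 1 was lower in each. Over all genes 13.6%, 15.7% and 16.4% were higher and 17.6%, 17.9% and 20.4% lower in these types. The same shares stand beside the core genes above and the gene lists below.

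Other small RNA genes, taken by symbol and including some microRNA host genes, did not show the pattern as a group, but their readings were low. Their mean log2 level per array was between 4.61 and 4.87, against 5.99 to 7.09 for the snoRNA genes. Whether a rise of the other small RNA genes could be seen at such levels was not tested. Of 318 such genes, mostly microRNA genes, 9 were higher and 37 lower in PDGF p53 tumours, 13 and 35 in PDGF p53 RBPJ tumours and 22 and 41 in p53 RBPJ tumours, with medians of -0.11, -0.08 and -0.05. Among the higher ones was Rnu3a (U3), a box C/D snoRNA of precursor cutting whose symbol falls outside the rule. It read 4.97, 4.82, 4.90 and 4.64 in normal brain and 6.73, 5.85, 9.79 and 6.25 in p53 RBPJ tumours, where replicate 3 again stood far above the rest, as for Snora75. Rmrp, the RNA of the nuclease MRP that cuts the ribosomal precursor, differed by 1.15 ± 0.15 and Scarna8, a guide RNA of the Cajal body, by 1.26 ± 0.23 in that comparison. These 3 were picked from the list after their values were seen.

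Host genes were higher as well. A host with a probe set of its own was measured for 29 snoRNA genes, 25 hosts in all, of which 16 were higher and 0 lower in PDGF p53 tumours, 19 and 1 in PDGF p53 RBPJ tumours and 20 and 0 in p53 RBPJ tumours. In p53 RBPJ tumours the snoRNA genes of these pairs had a median difference of 0.84 and their hosts of 0.59, and the snoRNA difference was the larger in 20 of 29 pairs. It was the larger in 18 of 29 in PDGF p53 RBPJ tumours and in 13 of 29 in PDGF p53 tumours. The gap was wide for Snord16a (0.96) in Rpl4 (0.04), Snord47 (1.07) in Gas5 (0.20) and Snord14e (0.65) in Hspa8 (-0.27). It ran the other way for Snord57 (0.13) in Nop56 (0.89) and Snord42a (-0.58) in Rpl23a (0.40). Between PDGF types 0 of 25 hosts passed and the medians were 0.22 for the snoRNA genes and 0.11 for the hosts. Probe sets of host and snoRNA need not read the same molecule, so these gaps are between readings and not between amounts of RNA. Hosts were taken by span without a check of strand, and Snord87 was paired with Mcmdc2 because Snhg6 was not measured.

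**Figure D5:**
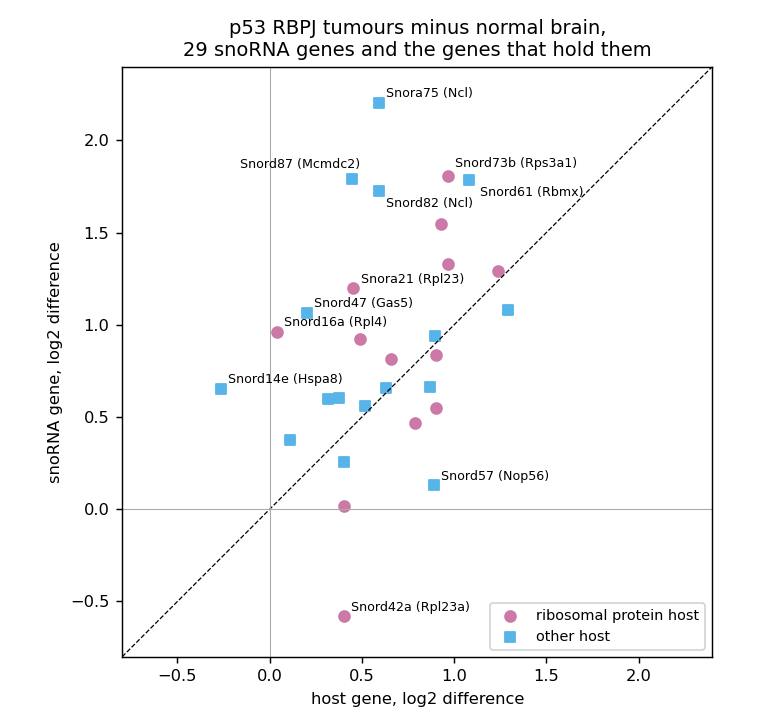
Difference in log2 level between p53 RBPJ tumours and normal brain for 29 snoRNA genes (vertical axis) against that of the host gene (horizontal axis), with the diagonal of equal change. Of the 29 points 20 lie above the diagonal, with Snora75 at 2.20 against 0.59 for Ncl, and Snord57 and Snord42a lie far below it.

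SnoRNA genes that share a host did not always move by the same amount, and 10 hosts held a pair. Between p53 RBPJ tumours and normal brain, Rpl13a held Snord35a at a difference of 1.63 and Snord33 at 0.75, and Rack1, a scaffold protein of the ribosome, held Snord95 at 1.30 and Snord96a at 0.43. The pair of 2410006H16Rik, Snord49a and Snord49b, gave 0.90 and 0.02. Closer pairs were Snora73a and Snora73b in Snhg3, with 0.97 and 0.88, and Snord15a and Snord15b in Rps3, with 0.55 and 0.84. Differences between members of a pair were not tested.

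By the location of the gene, those in ribosomal protein hosts and those elsewhere were alike in count. In p53 RBPJ tumours 15 of 21 in ribosomal protein genes were higher (median 0.84) and 21 of 30 outside them (median 0.85). Of the 5 genes with a second probe set, Snora30 and Snord118 had identical values in both, and Snora21, Snora3 and Snord58b gave differences of 1.20 and 1.09, 0.81 and 0.82, and 0.16 and 0.11 in that comparison. Snord118 (U8), with its own promoter, read 3.90, 4.67, 4.44 and 4.05 in normal brain and 6.16, 5.46, 6.01 and 4.83 in p53 RBPJ tumours, a difference of 1.35 ± 0.32 (limma adjusted p = 0.00276).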

How the data were processed

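Values were log2 expression levels deposited by the authors, for which the submitters' processing notes name RMA and oligo; their versions, the annotation build and any filter were not given in the sources used here. Of 35556 probe sets, 21789 had 1 gene symbol in the platform annotation, 1621 had several and 12146 are unnamed here; 21701 matched the reference gene table (GRCm38.p6). The probe set with the highest mean was kept per gene. Group means of all 16 arrays were compared in 1 limma 3.58.1 fit (R 4.3.3; 12 residual and 5.33 prior degrees of freedom; Benjamini-Hochberg adjusted p under 0.05, two-sided; median SE 0.153), tested on simulated data. The number of arrays limits precision. Hosts are genes whose span contains the snoRNA; strand was not checked. Named were Snora73b and Snora33, in each comparison up to 8 rises and 8 falls past the threshold without overlap of arrays, the 5 highest and lowest between PDGF types, core particle proteins and hosts; other names were chosen after seeing values. Members and lists were chosen with earlier results of these data known. Deviations of same-numbered arrays of different groups correlated between -0.12 and 0.18 (median 0.03, 7 of 24 over 0.1). Those of other-numbered arrays correlated between -0.22 and 0.25 (median -0.009, 8 of 72 over 0.1). Whether replicate numbers pair the samples is not known, so the numbers were used as a block only in an alternative fit. Alternatives left out each array and changed 8 settings. Python 3.11.15, numpy 2.4.6, pandas 2.3.3 and matplotlib 3.10.9 were used for tables and figures.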

Additional observations from a re-analysis of the deposited data

Results flagged for a closer look

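Among 24 named snoRNA genes, 96 groups of 4 arrays were searched for an end array whose gap to the nearest other array, as a share of the group's range, passed Dixon's 95% critical value, and 3 were found. The high array of Snora75 in p53 RBPJ tumours and the low array of Snord57 in PDGF p53 tumours did not pass it, since their other arrays were spread as well; chance alone flags about 1 group in 20. Snord52 in PDGF p53 RBPJ replicate 2 was at 6.94, below a median of 7.47 for the others, and Snord52 in p53 RBPJ replicate 3 was at 8.11, above 7.77. Snord82 in PDGF p53 replicate 1 was at 8.88, above 8.43.

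Several genes differed between tumour types themselves. Snora74a was lower in p53 RBPJ than in PDGF p53 RBPJ tumours by limma (-0.63), lower in 4 of 4 arrays than the lowest array of the other type. It was the 1 gene of 51 called lower, where 2.63% of all genes were lower, and the call was lost in 13 of 24 alternatives. Between p53 RBPJ and PDGF p53 tumours, Snord52 (1.58), Snora73a (1.16), Snord38a (1.05), Snora69 (0.996), Snord87 (0.96) and Snord22 (0.89) were higher in all 4 p53 RBPJ arrays than in any PDGF p53 array. These comparisons share arrays with the contrast from which the genes were proposed.

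Probe sets that name several genes were outside the comparisons above. All 24 that name copies of Snord116 were lower in p53 RBPJ tumours than in normal brain (median -2.85, limma adjusted p under 0.05). Of the 17 others that name a snoRNA, with 15 distinct rows of values, 9 were higher (median 0.58). Over all genes 16.4% were higher and 20.4% lower. Apart from the probe set of Mir1291 and Snora34, those higher also name Rpl12, Rpl13a, Rps13, Hspa8, Snhg7 or Snhg8. They may therefore read the longer transcript and are not separate readings of a snoRNA.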

How the results depend on the processing

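For single named genes 24 alternatives at most were run, and no call changed direction. Without 1 array at a time, counts of snoRNA genes called higher ranged from 16 to 23 (PDGF p53 against control; lower 1 to 3; median 0.38 to 0.49), 31 to 34 (PDGF p53 RBPJ; lower 0 to 1; 0.69 to 0.78), 32 to 38 (p53 RBPJ; lower 0; 0.80 to 0.92), 0 to 1 (p53 RBPJ against PDGF p53 RBPJ; lower 0 to 1; 0.06 to 0.18), 9 to 15 (p53 RBPJ against PDGF p53; lower 0; 0.36 to 0.47) and 1 to 3 (between PDGF types; lower 0; 0.20 to 0.34). Keeping only genes at or above the median level left 30 snoRNA genes, so fewer could be called: 13, 21 and 22 higher in the 3 tumour types, with 1 lower and a median of 0.91 in PDGF p53 RBPJ tumours. In that type 2 were lower with array weights and 2 with only both groups in the fit. Housekeeping centring gave medians of 1.02 (p53 RBPJ against control), 0.27 (against PDGF p53 RBPJ; 1 higher, 0 lower) and 0.58 (against PDGF p53; 22 higher). Snora74a's count of 1 fell to 0 with only both groups in the fit and with the replicate block. Between PDGF types the count was 1 with array weights, only both groups, the replicate block and housekeeping centring. Whether the replicate numbers pair the samples is not known. With the block 21, 32 and 36 were higher than control. Snord57 (PDGF p53 against control) lost its call in 7 alternatives and Snord87 (p53 RBPJ against PDGF p53) in 1, with only both groups in the fit. Snora73b (PDGF p53 against control) lost its lower call in each fit without 1 array that left 1 or 2 genes lower. The cause was not tested.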

Other observations

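The Snord116 cluster, a tandem array of box C/D snoRNA copies known for neuronal expression and for its loss in a human imprinting disorder, ran opposite to most snoRNA genes. The mean over its 24 probe sets, which hold 7 distinct rows of values and cannot be told apart by copy, was 10.57, 10.83, 10.07 and 10.38 in normal brain. It read 8.68, 9.26, 10.07 and 8.35 in PDGF p53 tumours, 9.40, 8.96, 8.73 and 8.29 in PDGF p53 RBPJ tumours and 6.90, 7.04, 9.17 and 7.42 in p53 RBPJ tumours. The median difference from normal brain was -1.39, -1.63 and -2.85. PDGF p53 replicate 3 and p53 RBPJ replicate 3, the highest of their groups, also had the highest neuron list means of those groups, 9.32 and 8.23. In PDGF p53 RBPJ tumours the highest arrays were different ones, replicate 1 for Snord116 and replicate 3 for the neuron list. The part of neurons in these values was not tested. The same p53 RBPJ replicate 3 held the high values of Snora75 (10.83) and Rnu3a (9.79).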
